A study of Mus musculus with 6 samples.

Results

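The replication-dependent histone genes are the clustered, multi-copy genes for the linker histone H1 and the core histones H2A, H2B, H3 and H4. They were taken here as every gene name in the deposited table that starts with Hist1h to Hist4h, which gave 67 of 19342 names: 6 H1, 17 H2A, 19 H2B, 12 H3 and 13 H4 genes. RNA counts were compared between 6 libraries of mesoderm progenitor cells of C57BL/6 mice, with 1 library per condition. Untreated cells were taken at 0 h and at 96 h in culture with no growth factor. The other cells were labelled as given rhBMP4 for 5 h or 11 h, rhBMP4 and rhFGF8 for 5 h, or rhBMP4 and rhFGF4 for 11 h, at 101 h (5 h of factor) or 107 h (11 h of factor) in culture. All 6 shared a medium with fetal bovine serum and a feeder layer of wild type mouse embryonic fibroblasts whose division was blocked with mitomycin C. The labels do not say whether feeder cells were removed before RNA was taken, so a library may hold RNA of both. The libraries were prepared with a stranded total RNA kit.

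Nucleosomes wrap DNA around the core histones, and H1 binds the DNA between them. Dividing cells make these proteins in S phase, from mRNAs that as a rule end in a conserved stem-loop in place of a poly(A) tail. The stem-loop is bound by SLBP, and the U7 snRNP directs the cut behind it. Variant histones such as H2A.Z and H3.3 come from single, polyadenylated genes that are expressed through the cell cycle.

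The stem-loop is the sequence that marks this gene family, and it is shown for members on which the results below turn. In the GENCODE M21 transcripts (GRCm38) a pattern of 16 bases (a stem arm GGNNNT, a loop TNTN and a second arm ANNNCC, with all 6 pairs of the stem matched, on the transcript strand) was found in 46 of the 67 members, or 68.7%, and in 23 of 21810 other protein-coding genes, or 0.105%. It was present in 4 of 6 H1, 11 of 17 H2A, 10 of 19 H2B, 9 of 12 H3 and 12 of 13 H4 genes. There were 8 versions of the element. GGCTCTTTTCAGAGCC was carried by 26 genes of types H1, H2A, H2B and H3, and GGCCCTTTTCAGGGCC by 7 genes, all of them H4. Capitals below mark the stem and its loop, in DNA letters of the transcript strand.
Hist1h1c: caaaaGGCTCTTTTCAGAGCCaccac
Hist2h3c1: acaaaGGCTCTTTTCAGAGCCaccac
Hist1h2ao: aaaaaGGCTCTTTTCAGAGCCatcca
Hist1h2ad: acaaaGGCTCTTTTCAGAGCCatcca
Hist1h2bk: ccaaaGGCTCTTTTAAGAGCCactaa
Hist1h3c: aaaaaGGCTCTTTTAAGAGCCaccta
Hist1h4n: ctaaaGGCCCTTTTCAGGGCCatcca
Hist1h4i: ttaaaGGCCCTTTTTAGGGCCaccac
Hist1h4b: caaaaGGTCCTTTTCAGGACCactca
In the annotation 18 of the 46 transcripts ran on for more than 300 bases behind the stem-loop, and 23 ended within 100 bases of it. Hist1h1c and Hist2h3c1 were of the first kind, with 840 and 1162 further bases. The annotated transcript of Hist1h2af is only 399 bases long and the pattern was not found in it, which says nothing of the RNA in these cells.

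The table's 4 growth factor columns were out of register with the gene names, so each was placed on the names in order before use. Of the 67 members, 60 were placed securely in all 4 columns. They were 6 H1, 15 H2A, 16 H2B, 12 H3 and 11 H4 genes. The other 7, Hist1h2bg, Hist2h2ab, Hist2h2ac, Hist2h2bb, Hist2h4, Hist3h2bb-ps and Hist4h4, were left out. The 4 neighbouring pairs of copies with equal counts gave a check that the placement had not used. Hist1h2ao and Hist1h2ap, Hist1h2bq and Hist1h2br, Hist2h2aa1 and Hist2h2aa2, and Hist2h3c1 and Hist2h3c2 were equal within each pair in both untreated columns, and after placement they also had equal counts in all 4 growth factor columns. Of all rows with at least 200 counts in those columns, between 0.295% and 0.314% equalled the row before. The copies of such a pair cannot be told apart, and each pair is 1 measurement. Counts of members given below count both copies of a pair.

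Total counts ran from 179196459 (BMP4 11 h) to 272743104 (untreated 96 h), and all values below are CPM (counts scaled to a common library total) after TMM scaling. The library labelled BMP4 5 h stood close to the untreated 0 h library and far from the untreated 96 h library. Of 13865 genes analysed, 0.469% were at least 2-fold higher and 0.188% lower in BMP4 5 h than at 0 h, against 2.31% and 3.39% relative to 96 h. The summed markers of tailbud mesoderm, which define the cells named in the labels, were 259 CPM at 0 h, 16.9 at 96 h, 233 in BMP4 5 h, 224.5 with FGF8, 109 in BMP4 11 h and 27.6 with FGF4. Red blood cell markers summed to 22.3, 5230, 29.1, 157, 4923 and 3211 CPM in the same order. Ratios to the 96 h library therefore also compare libraries whose marker levels differ, and the part of cell makeup in them was not tested. In bulk RNA, fewer cells of a type and less RNA per cell cannot be told apart. Each condition was measured once. No p-value is given between single libraries, and every interval given for a ratio is an exact 95% interval of counting error alone.

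The clustered histone genes were expressed at low levels in all 6 libraries. Together the 60 members held between 0.016% and 0.0218% of the counts. Per kilobase of annotated exon, the median member stood at 0.817 CPM at 0 h, 0.756 at 96 h, 0.744 in BMP4 5 h, 1.06 with FGF8, 1.40 in BMP4 11 h and 1.31 with FGF4. The median of all 15972 genes with a length was between 2.42 and 2.50 CPM per kilobase. The 9 variant histone genes had medians between 38.7 and 50.4 CPM per kilobase. H2afz, which encodes H2A.Z, stood highest among the variants at 192 to 312 CPM per kilobase. The total RNA kit does not select poly(A) RNA. Of the RNAs examined that are known to lack a poly(A) tail, all but Malat1 lay under the median of all genes in CPM. These values, unlike those above, are not divided by length, so they do not compare RNAs of unlike length. Rmrp, the RNA of the RNase MRP enzyme, had 0.037 CPM at 0 h and 0.0521 at 96 h, and Terc, the telomerase RNA, had 0.0554 and 0.0558. Rpph1, the RNA of RNase P, had 1.32 and 0.707 CPM. Malat1, a long nuclear RNA whose end is cut without a poly(A) tail being added, had 44.5 and 29.8 CPM, above the median of all genes at 9.43 and 9.76 CPM. These genes were chosen after the members' levels had been seen, and the cause of the members' low levels was not tested.

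A group of 5 members stood apart from the rest in level. Hist1h4n, Hist1h2ao, Hist1h2ap, Hist1h2bq and Hist1h2br exceeded 5 CPM in every library and held between 69.8% and 77.5% of the members' counts. Hist1h4n, an H4 gene on chromosome 13, had 24.1 CPM at 0 h, 22.1 at 96 h, 22.9 in BMP4 5 h, 22.3 with FGF8, 29.9 in BMP4 11 h and 23.8 with FGF4. Its level per kilobase was 51.5 to 69.6 CPM. The H2A copies Hist1h2ao and Hist1h2ap had 48.2 to 67.3 CPM per kilobase, and the H2B copies Hist1h2bq and Hist1h2br, whose annotated transcripts have up to 3 exons, had 11.6 to 18.8. Next by mean level came Hist1h4i at 5.12 to 6.96 CPM per kilobase. Between its lowest and highest library each of the 5 varied by only 1.35 to 1.47 times, whereas Hist2h3b varied by 6.36 times and Hist1h2af by 27.3 times. Sums over all members are therefore mostly sums of these 5, and sums without them are given beside them.

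**Figure D1:**
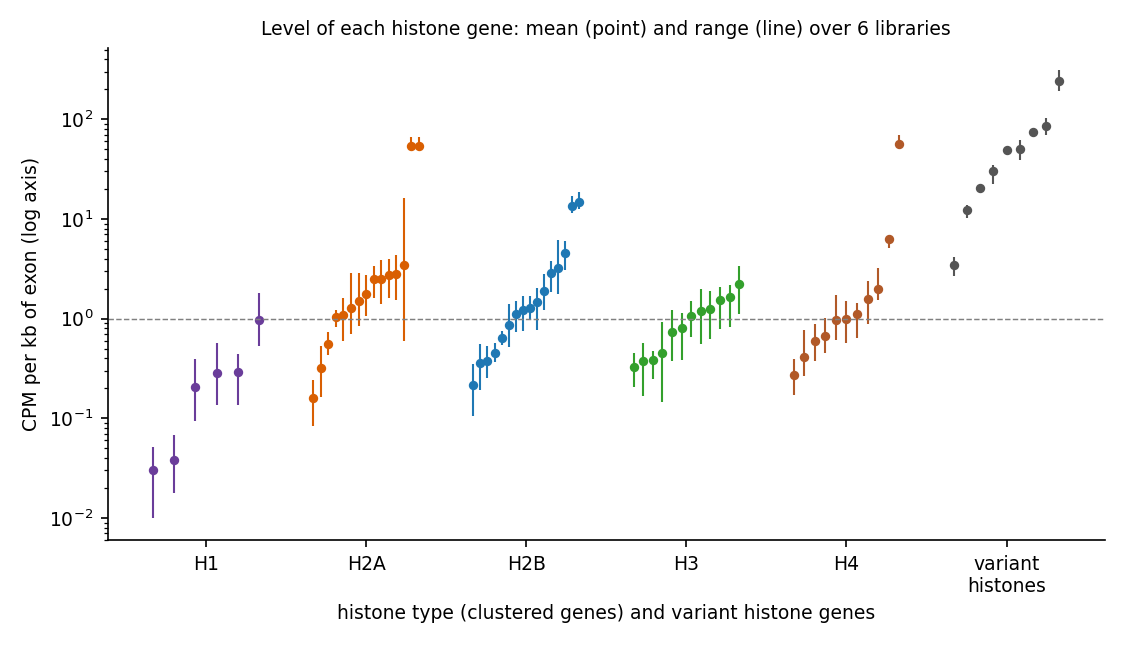
Level of every securely placed clustered histone gene and of 9 variant histone genes in CPM per kilobase of exon (log axis), with the mean over 6 libraries as a point and the lowest and highest library as the ends of a line. Most clustered genes lie near or under the dashed line at 1, the 5 abundant members lie above 10, and Hist1h2af has the longest line among the H2A genes.

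Most of the 55 other members were highest in an 11 h library and lowest in the untreated 96 h or BMP4 5 h library. Of the 55, 30 were highest in BMP4 11 h and 12 in BMP4 with FGF4 at 11 h, while 33 were lowest in the untreated 96 h library and 17 in BMP4 5 h. This tally was not made for other genes, which also leaned up at 11 h. In BMP4 11 h over BMP4 5 h, 94.4% of 54 members of 0.1 to 5 CPM had a log2 ratio above zero. Of other genes of that level, 60.9% did. Relative to each gene's own mean, the median log2 level of the 55 was -0.25 at 0 h, -0.53 at 96 h, -0.32 in BMP4 5 h, 0.18 with FGF8, 0.48 in BMP4 11 h and 0.34 with FGF4. H2A genes departed from the others at 96 h, where their median was 0.20 and that of H3 genes was -0.90.

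**Figure D2:**
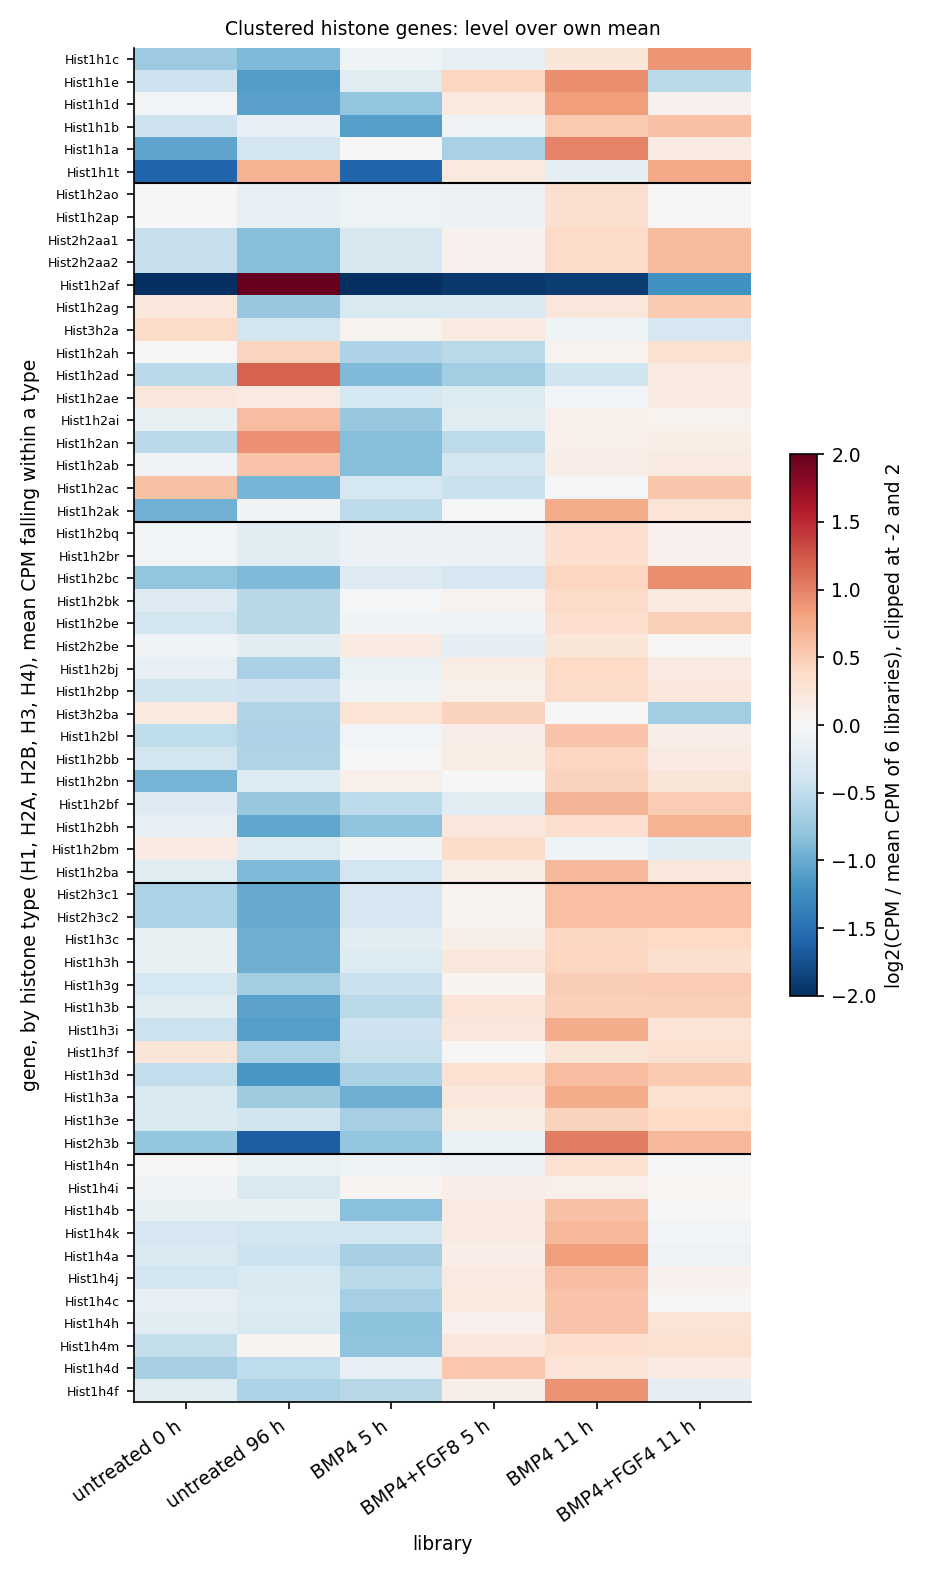
Log2 of each member's CPM over its own mean of 6 libraries (colour, clipped at -2 and 2), with genes as rows grouped by histone type and libraries as columns. Red prevails in both 11 h columns and blue in the 96 h column, except for a group of H2A genes led by Hist1h2af that is red at 96 h.

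The comparison of untreated 96 h with untreated 0 h cells sets 0 h beside 96 h in culture without added factor. Time in culture and cell makeup cannot be told apart in it. The members as a group were slightly lower at 96 h, and a few H2A genes were higher. A gene was called where the log2 ratio with 0.5 CPM added to both levels was at least 2-fold and the counting interval of the plain ratio excluded 1. Only 27 of the 60 members reached the minimum of 1 CPM in at least 1 library. Of these 27, 2 were called higher and 0 lower, beside 3.91% of all genes called higher and 2.32% lower. Their median log2 ratio was -0.16, against -0.00 for all genes analysed.

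Hist1h2af, an H2A gene at chr13:23533906-23534304 on the plus strand, had 0.240 CPM at 0 h, 6.5 at 96 h, 0.238 in BMP4 5 h, 0.364 with FGF8, 0.372 in BMP4 11 h and 0.598 with FGF4. It was high in the 96 h library alone. The ratio of 96 h to 0 h was 27.0 (20.5 to 36.3). Hist1h2ad, an H2A gene at chr13:23574381-23574952 on the plus strand, had 0.508, 1.66, 0.398, 0.454, 0.557 and 0.834 CPM in that order of libraries. Its ratio of 96 h to 0 h was 3.27 (2.65 to 4.06), and it too was highest at 96 h. Both are named for their calls and were singled out after their values had been seen. Hist1h2an, also seen afterwards, went from 0.407 to 1.12 CPM, a plain ratio of 2.75 (2.16 to 3.52) that the added 0.5 CPM brought under the 2-fold limit. By the plain ratio of genes with at least 30 counts in the pair of libraries, a rule added after seeing the data, 3 of 59 members were 2-fold higher and 2 lower, beside 6.81% and 4.73% of all genes. The 3 higher were these H2A genes. A value in a growth factor column that lies between a gene's untreated values adds no cost for its distance from them. A wide range between the untreated values itself adds a cost. For Hist1h2af the placement therefore rests on its neighbours.

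Other H2A genes did not share this. Hist1h2ag went from 1.56 CPM at 0 h to 0.789 at 96 h, a ratio of 0.505 (0.424 to 0.602), and Hist1h2ac from 0.596 to 0.208, a ratio of 0.35 (0.251 to 0.482). Coding sequences of these genes are alike: over 393 bases, identity with Hist1h2af was 98.7% for Hist1h2ad, 98.5% for Hist1h2ao and Hist1h2ap, 98.2% for Hist1h2an and Hist1h2ag, and 97.2% for Hist1h2ac. Genes of equal identity, Hist1h2an and Hist1h2ag, thus had ratios of 2.75 and 0.505. How the deposited counts divide reads between such copies is not given in the sources used here, so the value of any single H2A copy is uncertain.

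H2A and H2B genes often lie head to head and share the stretch between their starts. In the annotation 12 such pairs start within 500 bases of each other on opposite strands, and 9 had both members placed securely. In the 96 h library the partners of Hist1h2ad and Hist1h2an were not higher, and Hist1h2af was in none of the 12 pairs. Hist1h2ak and its partner Hist1h2bn were both higher than at 0 h, at ratios of 1.84 and 1.56. Hist1h2bf, the partner of Hist1h2ad with 185 bases between the starts, went from 0.337 to 0.238 CPM, and Hist1h2bp, the partner of Hist1h2an, stayed at 0.693 and 0.685. The median ratio of 96 h to 0 h over the 9 pairs was 1.35 for the H2A and 0.894 for the H2B member, and 5 of 9 pairs moved in the same direction. In BMP4 11 h over BMP4 5 h all 9 pairs moved in the same direction, with medians of 1.46 and 1.39. Of the 9, 2 pairs, Hist1h2ao with Hist1h2bq and Hist1h2ap with Hist1h2br, had the same counts.

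**Figure D3:**
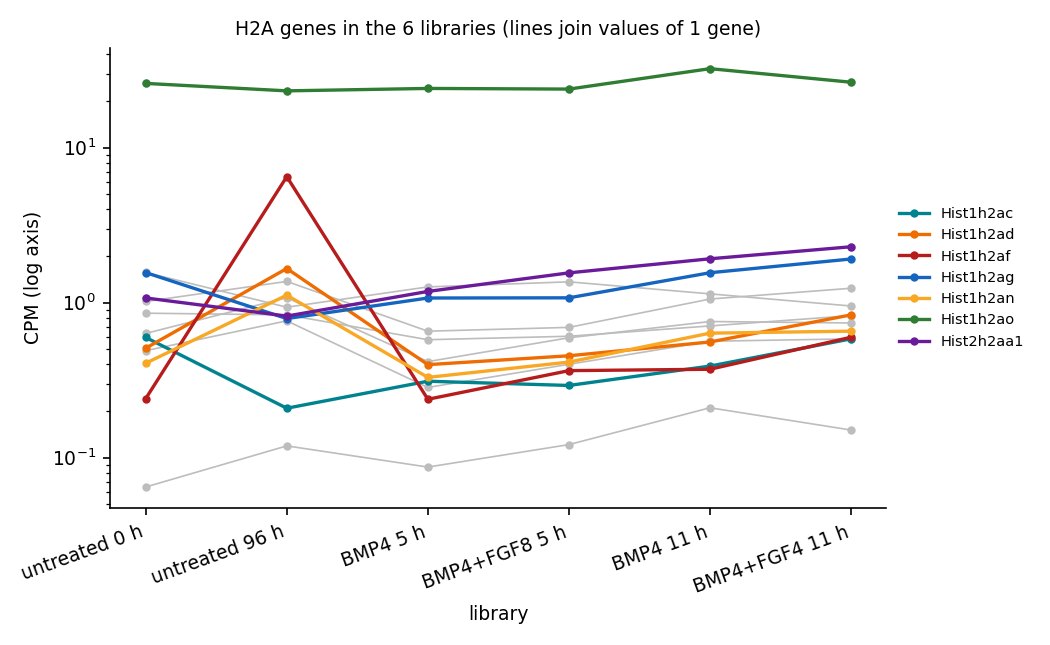
CPM of the 15 securely placed H2A genes (log axis) in the 6 libraries, with 7 genes in colour and the others in grey, where a line joins the values of 1 gene. Hist1h2af, Hist1h2ad and Hist1h2an peak in the untreated 96 h library, where Hist1h2ag and Hist1h2ac are low, and Hist1h2ao stays between 23.2 and 32.3 CPM.

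The promoters of the 2 H2A genes called at 96 h are shown because these were the only members called there under the rule with 0.5 CPM added. They are RefSeq sequences of GRCm38.p6, from 250 bases before to 50 bases after the start, at chr13:23533625-23533924 for Hist1h2af and chr13:23574131-23574430 for Hist1h2ad, both on the plus strand. Capitals mark CCAAT and TATAAA on either strand.
Hist1h2af: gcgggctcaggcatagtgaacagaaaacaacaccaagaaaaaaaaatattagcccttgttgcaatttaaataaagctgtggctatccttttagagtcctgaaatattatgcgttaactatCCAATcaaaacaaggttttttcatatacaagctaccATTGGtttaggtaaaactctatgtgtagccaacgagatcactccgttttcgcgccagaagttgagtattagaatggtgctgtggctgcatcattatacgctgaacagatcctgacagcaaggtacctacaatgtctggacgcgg
Hist1h2ad: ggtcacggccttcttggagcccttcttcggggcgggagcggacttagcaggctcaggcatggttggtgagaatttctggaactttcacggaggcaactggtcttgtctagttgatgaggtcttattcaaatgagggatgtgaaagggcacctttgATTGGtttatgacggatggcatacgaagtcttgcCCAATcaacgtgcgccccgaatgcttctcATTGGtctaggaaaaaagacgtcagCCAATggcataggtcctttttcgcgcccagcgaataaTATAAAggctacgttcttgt
Both hold CCAAT and only Hist1h2ad holds TATAAA. Over the 59 members with a RefSeq promoter, CCAAT was present in every one of 6 H1, 16 H2A, 15 H2B and 10 H3 promoters but in 3 of 12 H4 promoters, and in 37.4% of all 32851 promoters. TATAAA was present in 34 of 59, or 57.6%, and in 13.6% of all. The octamer ATTTGCAT, known from H2B promoters, was present in 6 of 15 H2B and 6 of 16 H2A promoters and in 0 of the H1, H3 and H4 promoters, with 1.74% of all promoters holding it. AAACACA, known as the H1 box, was present in 5 of 6 H1 promoters and in 7.18% of all. Each motif was searched on both strands with overlaps between motifs kept, and a match describes letters only.

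BMP4 11 h, at 107 h in culture, was compared with BMP4 5 h, at 101 h. Time with BMP4, time in culture and cell makeup cannot be told apart in this comparison. Nearly all members stood higher at 11 h by their plain ratios, in all 5 types. Under the rule with 0.5 CPM added, 0 of 27 members were called higher and 0 lower, beside 2.71% and 0.397% of all genes. The added 0.5 CPM compresses the ratios of genes near 1 CPM. By the plain ratio 21 of 59 members were at least 2-fold higher and 0 lower, beside 6.66% and 1.07% of all genes. The median log2 plain ratio of the 59 was 0.70, against 0.00 for all genes, and 56 of 59 were above zero. Among genes with a mean of 0.1 to 5 CPM, 38.9% of 54 members and 14.3% of 5950 other genes were at least 2-fold higher.

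H3 genes, whose proteins pair with H4 in the core of the nucleosome, gave the largest change in their sum. All 12 H3 genes together had 7.25 CPM at 0 h, 4.96 at 96 h, 7.29 in BMP4 5 h, 10.4 with FGF8, 14.2 in BMP4 11 h and 13.6 with FGF4. The 96 h library was lowest and both 11 h libraries were highest. BMP4 11 h was 1.95 times (1.83 to 2.1) BMP4 5 h and 2.85 times (2.67 to 3.06) the 96 h library. BMP4 5 h was at the level of 0 h, with a ratio of 1.00 (0.936 to 1.08). Of 12 H3 genes, 6 had a plain ratio of at least 2 at 11 h over 5 h. This stands beside 6.66% of all genes and 14.3% of other genes of 0.1 to 5 CPM. At 11 h over 96 h 10 had one, beside 7.22% and 15%. Of the H3 genes only Hist2h3c1 and Hist2h3c2 kept a stricter placement margin of 10 cost units, in place of 5. Hist1h3d to Hist1h3i share a margin of 7.771 in BMP4 11 h and may be misplaced together.

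Hist2h3c1 and Hist2h3c2, equal H3 copies on chromosome 3, carried the most counts among the H3 genes. Each had 1.47 CPM at 0 h, 1.13 at 96 h, 1.79 in BMP4 5 h, 2.37 with FGF8, 3.44 in BMP4 11 h and 3.43 with FGF4. Both 11 h libraries lay above the other 4. The ratio of BMP4 11 h to 5 h was 1.92 (1.68 to 2.18). Hist1h3c had 0.938, 0.525, 0.892, 1.12, 1.37 and 1.37 CPM in the same order, and Hist1h3h had 0.573, 0.320, 0.522, 0.737, 0.851 and 0.791. Both were lowest at 96 h and highest in the 11 h libraries, at lower levels. Hist2h3b, the least abundant H3 gene, had a ratio of 3.51 (2.25 to 5.63) from 0.128 to 0.450 CPM.

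The H4 genes without Hist1h4n summed to 7.76 CPM at 0 h, 7.14 at 96 h, 7.52 in BMP4 5 h, 9.83 with FGF8, 11.2 in BMP4 11 h and 9.12 with FGF4. BMP4 11 h was highest and was 1.5 times (1.4 to 1.6) BMP4 5 h. With Hist1h4n the sums were 31.85, 29.3, 30.4, 32.1, 41.2 and 32.95 CPM in that order, and the ratio was 1.36 (1.31 to 1.4). Of 11 H4 genes, 8 were at least 2-fold higher at 11 h than at 5 h by the plain ratio. This stands beside 6.66% of all genes and 14.3% of other genes of 0.1 to 5 CPM. Hist1h4a to Hist1h4h did not keep a placement margin of 10, and Hist1h4b to Hist1h4f share 7.662 in BMP4 11 h. Hist1h4b had 0.568 CPM at 0 h, 0.566 at 96 h, 0.352 in BMP4 5 h, 0.715 with FGF8, 0.941 in BMP4 11 h and 0.631 with FGF4. Hist1h4k had 0.494, 0.480, 0.485, 0.701, 0.995 and 0.603 CPM. In both, BMP4 11 h was highest and the library with FGF4 lay below the one with FGF8. Hist1h4i, the second most abundant H4 gene, differed from these and stayed between 3.72 and 5.06 CPM in all libraries.

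The H2B genes without Hist1h2bq and Hist1h2br summed to 11.9 CPM at 0 h, 10.1 at 96 h, 14.4 in BMP4 5 h, 15 with FGF8, 19.8 in BMP4 11 h and 20.3 with FGF4. With these copies the sums were 69.3, 61.4, 69.45, 70.1, 95.4 and 83.65 CPM in that order. The ratio of BMP4 11 h to BMP4 5 h was 1.37 in both cases. Hist1h2bc, the most abundant H2B gene after these copies, had 2.17 CPM at 0 h, 2.03 at 96 h, 3.13 in BMP4 5 h, 2.95 with FGF8, 5.01 in BMP4 11 h and 7.15 with FGF4. Both 11 h libraries lay above the other 4, and the one with FGF4 was highest. The ratio of BMP4 11 h to 5 h was 1.6 (1.45 to 1.78). Hist1h2bk had 1.825, 1.48, 2.15, 2.28, 2.84 and 2.48 CPM in the same order, a narrower range. Hist3h2ba, an H2B gene of the small cluster on chromosome 11, went the other way, with 0.869, 0.499, 0.915, 1.04, 0.749 and 0.466 CPM.

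The H2A genes without Hist1h2ao and Hist1h2ap summed to 10.1 CPM at 0 h, 17.0 at 96 h, 7.99 in BMP4 5 h, 9.49 with FGF8, 11.8 in BMP4 11 h and 13.7 with FGF4. Without these copies the 96 h library was highest, and Hist1h2af alone supplied 6.5 of its 17.0 CPM. BMP4 11 h was 1.47 times (1.38 to 1.57) BMP4 5 h. Over all 15 H2A genes the sums were 62.0, 63.5, 56.15, 57.2, 76.4 and 66.5 CPM in that order, with BMP4 11 h highest. BMP4 11 h over 96 h thus turned from 0.693 (0.657 to 0.731) without the abundant copies to 1.203 (1.18 to 1.23) with them. Hist2h2aa1 and Hist2h2aa2, equal copies, each had 1.07, 0.819, 1.18, 1.56, 1.92 and 2.29 CPM in the same order. Unlike Hist1h2af, they were lowest at 96 h and highest in the 11 h libraries.

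The 6 H1 genes together had 1.765 CPM at 0 h, 1.54 at 96 h, 2.25 in BMP4 5 h, 2.585 with FGF8, 3.81 in BMP4 11 h and 4.0 with FGF4. BMP4 11 h was 1.7 times (1.51 to 1.91) BMP4 5 h. A stricter placement margin of 10 kept only Hist1h1c of the H1 genes, and its log2 ratio of 0.347 was not called. Hist1h1c, the most abundant H1 gene, had 0.924, 0.823, 1.43, 1.36, 1.80 and 2.81 CPM, with FGF4 highest. Hist1h1e had 0.296, 0.182, 0.334, 0.53, 0.755 and 0.273 CPM, with BMP4 11 h highest and FGF4 low. The H1 sums of both 11 h libraries had a ratio of 1.05 (0.945 to 1.16), although these H1 genes differed between them. Hist1h1b and Hist1h1d reached at most 0.325 and 0.504 CPM, and Hist1h1t, a testis H1 gene, was at 0.00915 to 0.0471 CPM.

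**Figure D4:**
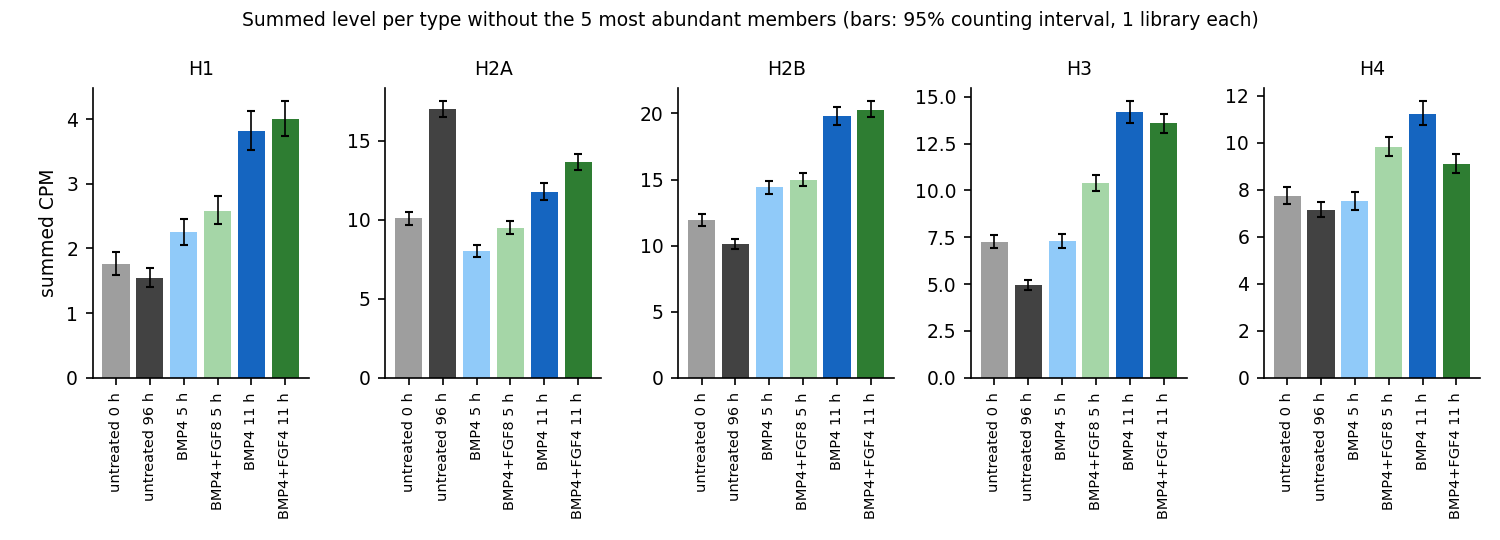
Summed CPM per histone type without the 5 abundant members, 1 bar per library, with the 95% counting interval as the error bar. H1, H2B and H3 are highest in both 11 h libraries, H4 is highest in BMP4 11 h, and H2A is highest in the untreated 96 h library.

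Over all 60 members the sum was 172 CPM at 0 h, 161 at 96 h, 165.5 in BMP4 5 h, 172 with FGF8, 231 in BMP4 11 h and 201 with FGF4. BMP4 11 h was 1.40 times (1.38 to 1.42) BMP4 5 h and 1.44 times (1.42 to 1.46) the 96 h library. Without the 5 abundant members the sums were 38.8, 40.8, 39.45, 47.3, 60.8 and 60.65 CPM in the same order, and BMP4 11 h was 1.54 times (1.5 to 1.59) BMP4 5 h. The ratio of 96 h to 0 h turned from 0.933 (0.92 to 0.946) over all members to 1.05 (1.02 to 1.08) without the 5.

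Against the untreated 96 h library, BMP4 11 h had 3 of 27 members called higher and 2 lower under the rule with 0.5 CPM added, beside 2.54% and 0.303% of all genes. Those higher were Hist1h2bc, at 2.47 times (2.21 to 2.75), and the copies Hist2h3c1 and Hist2h3c2, at 3.04 times (2.64 to 3.5). Those lower were Hist1h2af and Hist1h2ad, the genes that were high at 96 h. Taken as plain ratios, 26 of 59 members were 2-fold higher and 2 lower, beside 7.22% and 1.08% of all genes. Among genes of 0.1 to 5 CPM, 48.1% of 54 members and 15% of 5948 other genes were 2-fold higher. BMP4 5 h against 96 h had 0 of 27 called higher and 2 lower, again Hist1h2af and Hist1h2ad, beside 2.31% and 3.39%. As plain ratios these counts were 0 and 6 of 59, beside 5.09% and 5.62%, and all 6 were H2A genes. Among genes of 0.1 to 5 CPM, 11.1% of 54 members and 11.2% of 5939 other genes were 2-fold lower. BMP4 5 h against 0 h had 0 of 27 called in either direction, beside 0.469% and 0.188%. In plain ratios 2 of 59, Hist1h1a and Hist1h2bn, were 2-fold higher and 0 lower, beside 1.67% and 0.539%. Among genes of 0.1 to 5 CPM, 3.7% of 54 members and 3.76% of 5832 other genes were 2-fold higher. These comparisons share the 96 h, 0 h or BMP4 5 h library and are not independent of one another.

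A lower limit of 1.5-fold, with 0.5 CPM still added, gave more calls among the same 27 members. BMP4 11 h against 96 h had 12 higher and 2 lower, beside 6.09% and 2.06% of all genes. BMP4 11 h against BMP4 5 h had 3 higher and 0 lower, beside 6.41% and 1.72%, so the members' share was near that of all genes. At 96 h against 0 h, 3 were higher and 1 lower, beside 7.72% and 5.68%, and in BMP4 5 h against 96 h, 0 were higher and 5 lower, beside 5.81% and 6.74%. In FGF8 against BMP4 alone there were 0 in both directions, beside 0.368% and 0.216%. The same held for FGF4 against BMP4 alone, beside 3.67% and 2.57%, and for BMP4 5 h against 0 h, beside 1.02% and 0.339%.

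FGF8 with BMP4 for 5 h was set beside BMP4 alone for 5 h. With 1 library each, the added FGF8 and cell makeup cannot be told apart. Under the rule with 0.5 CPM added, 0 of 27 members were called higher and 0 lower than with BMP4 alone, beside 0.195% and 0.0505% of all genes. The plain ratio called 5 of 59 members 2-fold higher and 0 lower, beside 0.776% and 0.685%. Among genes of 0.1 to 5 CPM, 9.26% of 54 members and 1.48% of 5861 other genes were 2-fold higher. Smaller differences ran one way: 49 of 59 members were above zero with a median log2 ratio of 0.40, against 0.01 for all genes and 0.01 for 5861 other genes of 0.1 to 5 CPM. The H3 sum was 1.43 times (1.34 to 1.52) that of BMP4 5 h, the H4 sum without Hist1h4n 1.31 times (1.23 to 1.40), and the H2B sum without its abundant copies 1.04 times (0.990 to 1.09). Hist1h2bc, at 2.95 against 3.13 CPM, and Hist1h1c, at 1.36 against 1.43, were not above BMP4 alone.

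FGF4 with BMP4 for 11 h was set beside BMP4 alone for 11 h, with the same limit. Again 0 of 27 members were called higher and 0 lower, beside 1.28% and 0.649% of all genes. By the plain ratio 0 of 59 were 2-fold higher and 2 lower, beside 2.64% and 2.12%. Among genes of 0.1 to 5 CPM, 3.7% of 54 members and 3.96% of 5956 other genes were 2-fold lower. The 2 lower were Hist1h1e, from 0.755 to 0.273 CPM at a ratio of 0.362 (0.260 to 0.497), and Hist1h4f, from 0.2997 to 0.141. The types differed from each other: the H4 sum without Hist1h4n was 0.811 times (0.760 to 0.864) that of BMP4 alone, the H3 sum 0.958 times (0.907 to 1.01) and the H2A sum without its abundant copies 1.16 times (1.09 to 1.23). With the abundant copies the H2A direction turned, to 0.870 times (0.850 to 0.892). The H2B sum was 0.876 times (0.858 to 0.895) with its abundant copies and 1.03 times (0.98 to 1.07) without them. Hist1h2bc had a ratio of 1.43 (1.31 to 1.55) and Hist1h1c of 1.56 (1.36 to 1.8), both short of 2-fold.

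**Figure D5:**
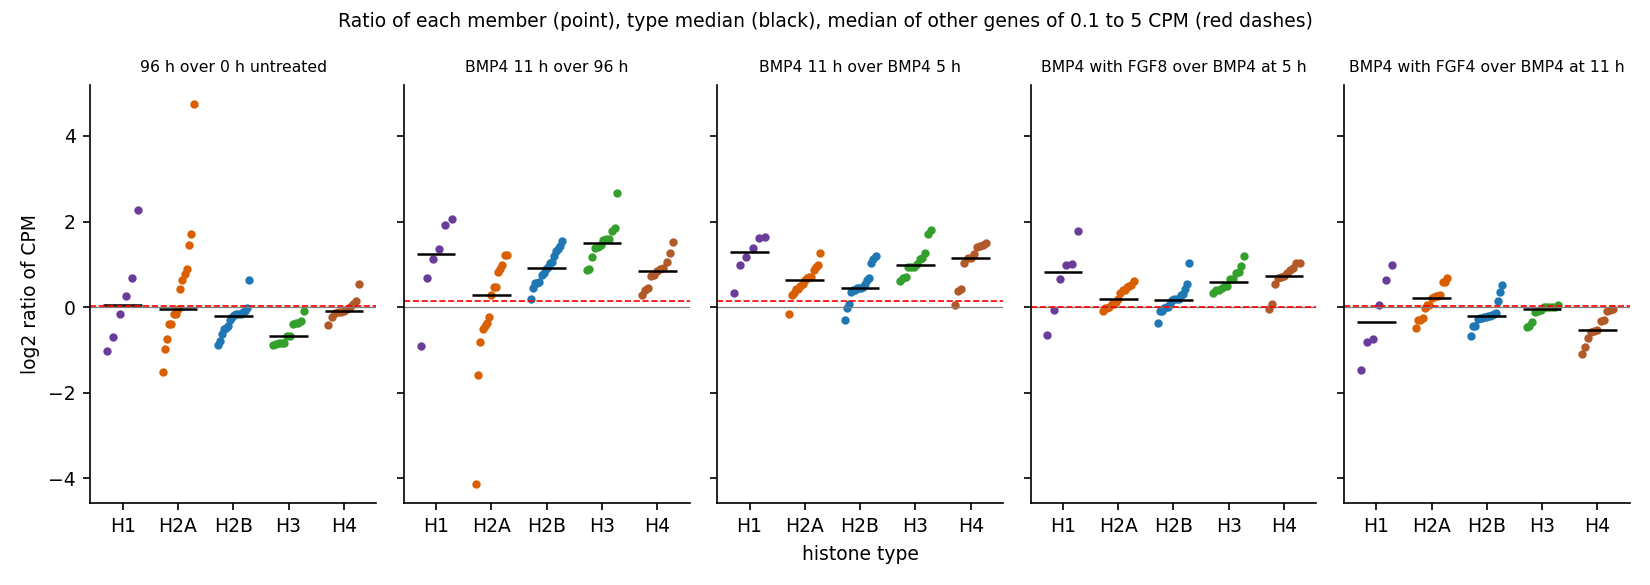
Log2 plain ratio of CPM of each member in 5 comparisons, grouped by histone type, with the type's median as a black bar and the median of other genes of 0.1 to 5 CPM as red dashes. In BMP4 11 h over BMP4 5 h nearly all points lie above the dashes. In FGF8 over BMP4 alone the medians of all 5 types lie above them, with 0.18 for H2B and 0.73 for H4. In FGF4 over BMP4 alone the H1, H4, H2B and H3 medians lie below and the H2A median (0.22) above.

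The 4 libraries with BMP4 form 2 at 5 h and 2 at 11 h, which differ in the FGF added. In 44 of 59 members both 11 h libraries lay above both 5 h libraries and in 3 both lay below, beside 29.8% and 30.8% of all genes. Of other genes of 0.1 to 5 CPM, 42.6% lay above and 22.2% below. By type, 12 of 12 H3, 14 of 15 H2A, 12 of 16 H2B, 3 of 5 H1 and 3 of 11 H4 genes lay above. The 3 that lay below were Hist1h2bm, Hist3h2a and Hist3h2ba. The H4 genes thus mostly overlapped between the times, and the H3 genes did not. Of the H3 genes, only Hist2h3c1 and Hist2h3c2 kept a placement margin of 10.

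In edgeR's quasi-likelihood test of 11 h against 5 h over these 4 libraries, 0 of 27 members passed an adjusted p of 0.05 in either direction, beside 2.58% of all genes higher and 0.404% lower. At an unadjusted p under 0.05, 14 of 27 were higher and 0 lower, beside 13.9% and 12.1%. The 14 hold both copies of Hist1h2ao and Hist1h2ap, Hist1h2bq and Hist1h2br, Hist2h2aa1 and Hist2h2aa2, and Hist2h3c1 and Hist2h3c2. Each of these pairs is 1 measurement, so the distinct measurements are fewer. The smallest adjusted p, by edgeR with Benjamini-Hochberg adjustment, was 0.0697 for Hist1h2bc at a log2 ratio of 1.00, and it was 0.0982 for Hist2h3c1 at 0.72. DESeq2 on the same libraries called 5 members higher and 0 lower, beside 10.1% and 4.76% of all genes. They were Hist1h2bc, the copies Hist2h3c1 and Hist2h3c2, and the copies Hist1h2bq and Hist1h2br, which make 3 distinct measurements. The edgeR count moved when single libraries were left out. Such fits leave 1 library at a time point, which is assumed to vary like the other pair. No conclusion is drawn from their counts.

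RNAs without a poly(A) tail did not share 1 order of libraries. Rmrp had 0.037 CPM at 0 h, 0.0521 at 96 h, 0.0915 in BMP4 5 h, 0.112 with FGF8, 0.564 in BMP4 11 h and 0.254 with FGF4. Rpph1 had 1.32, 0.707, 0.924, 1.08, 1.80 and 1.35 CPM in that order, and Terc had 0.0554, 0.0558, 0.0824, 0.0944, 0.120 and 0.104. These 3 were highest in BMP4 11 h, whereas Rnu11, a spliceosomal RNA, was highest at 0 h with 0.12 CPM. Malat1, the most abundant of the 5, had 44.5, 29.8, 73.5, 72.9, 70.8 and 94.9 CPM, so BMP4 11 h was not above BMP4 5 h. Rmrp and Terc were lowest at 0 h, whereas most members were lowest at 96 h. The part of such a shift in the members' levels was not tested. In other single-exon protein-coding genes of 0.1 to 5 CPM the median log2 ratio of BMP4 11 h to BMP4 5 h was 0.06 over 165 genes, and it was 0.90 over the 54 members of that range.

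Genes that work with the histones in S phase were described for the same libraries. Of 26 S phase genes, 0 were called higher or lower at 2-fold in any of the 7 comparisons, and their summed level was 2590 CPM at 0 h, 2668 at 96 h, 2556 in BMP4 5 h, 2546 with FGF8, 2546 in BMP4 11 h and 2333 with FGF4. Rrm2, a subunit of ribonucleotide reductase, had 204, 190, 197, 199, 209 and 178 CPM. Uhrf1 and Mcm6, next in level, ranged from 178 to 207 and from 176 to 195 CPM. The S phase sum varied less between libraries than the H3 sum. Of 16 G2/M genes, 0 were called in any comparison, and Top2a, the topoisomerase of dividing cells, had 243 CPM in BMP4 11 h against 303 in BMP4 5 h. Mki67 and Kif20a ranged from 169 to 241 and from 108 to 133.5 CPM.

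Of 18 histone mRNA processing genes, 0 were called at 2-fold in any comparison. The most abundant, Sympk, Srrt and Ncbp1, ranged from 116.5 to 125 CPM, from 113 to 124.5 and from 93.2 to 106 CPM. Slbp, named for its role, had 76.5 CPM at 0 h, 82.7 at 96 h, 76.0 in BMP4 5 h, 78.1 with FGF8, 83.3 in BMP4 11 h and 74.6 with FGF4. Npat, the coactivator of histone gene transcription, also named for its role, ranged from 24.4 to 27.8 CPM. Of 18 histone chaperone genes, 0 were called, with Nasp, which binds H3 and H4 before assembly, at 336 to 356 CPM, and Npm1 and Nap1l1 at 472 to 583 and 276 to 331 CPM. Of 9 variant histone genes, 0 were called. H2afz was highest in BMP4 11 h at 555 CPM and lowest with FGF4 at 341, and H3f3a, which encodes H3.3, was likewise highest at 361 and lowest at 245. H3f3b, a second H3.3 gene, ranged from 201 to 239 CPM.

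Arrest and p53 target genes, in contrast to the S phase list, had calls. Of 13 analysed, 6 were called higher in BMP4 11 h than at 96 h beside 2.54% of all genes, and 2 higher than in BMP4 5 h, beside 2.71%, with 0 lower in both. Cdkn1a, the p21 inhibitor of cyclin-dependent kinases, had 6.88 CPM at 0 h, 4.79 at 96 h, 11.2 in BMP4 5 h, 9.31 with FGF8, 25.0 in BMP4 11 h and 19.0 with FGF4. Sesn2, a p53 target, had 7.99, 7.12, 8.29, 8.20, 27.3 and 16.5 CPM. These were the 2 called over BMP4 5 h, and they do not stand for the list. Cdkn1c, the most abundant, had 59.7 CPM in BMP4 5 h and 59.2 in BMP4 11 h, and Mdm2 had 36.9 and 49.3. Btg2 went from 40.4 to 26.7 CPM and Pmaip1 from 27.0 to 14.99. Against 96 h, with 11.5 and 1.71 CPM, these last 2 were among the 6 called higher in BMP4 11 h. Markers of other cells also differed between the 4 BMP4 libraries. Of 7 red blood cell genes, 7 were called higher in BMP4 11 h than in BMP4 5 h, as were 7 of 7 endothelial and 4 of 9 fibroblast genes, while 4 of 7 tailbud genes were lower. Fibroblast markers summed to 184 CPM at 0 h, 836 at 96 h, 264 in BMP4 5 h, 236 with FGF8, 512 in BMP4 11 h and 1237 with FGF4, and endothelial markers to 8.15, 105, 7.63, 8.35, 49.05 and 139. The 96 h library was high in both, and 33 of the 55 lower members were at their lowest there. Their part in the difference between 11 h and 5 h was not tested.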

How the data were processed

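The authors deposited 1 table of raw read counts per gene, with 6 columns of whole numbers. Per the submitters' processing notes the build was mm10, and the tools listed there, with no role given, were HTSeq, DESeq, STAR 2.4.0e and cutadapt. How counts were divided between copies is not given in the sources used here. The 4 growth factor columns are longer than the list of names and were aligned to it in sorted order by dynamic programming on both untreated columns. A gene was used where its placement was better than any other by at least 5 cost units in all 4 columns, where columns of the same time agreed when aligned with each other, and where no neighbour exchange was found. This kept 16882 genes with 98.73% to 98.79% of the counts. On simulated columns, 99.8% to 99.9% of the secure placements over all genes and 86.3% to 100% of those of members were right. Among simulated members given a changed level, 55% to 73.7% were placed securely and 78.6% to 100% of those were right. CPM used TMM library sizes (edgeR 4.0.16 in R 4.3.3). Log2 ratios had 0.5 CPM added, genes needed 1 CPM in at least 1 library, and a call needed 2-fold and an exact Clopper-Pearson interval excluding 1. Sums were called at 1.5-fold. The 2 libraries at 11 h were tested against the 2 at 5 h with edgeR's quasi-likelihood test and, as an alternative, DESeq2 1.42.0. Named were the 4 most abundant members of each type, called genes of at least 5 CPM, and, of each other list, the 3 most abundant genes and up to 2 called per direction and comparison; marker lists are given as sums and counts, and further genes were chosen after their values were seen. The members and gene lists were chosen with earlier results of these data known. Intervals cover counting error only.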

Additional observations from a re-analysis of the deposited data

How the results depend on the processing

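Each sum and count was recomputed with other library sizes, pseudocounts, filters and placements, and 473 of the resulting values kept their direction and call. No paired analysis was possible because each condition has 1 library. Log2 ratios of sums that crossed the 1.5-fold limit were as follows. A placement margin of 10 left 34 members, with Hist1h1c as the only H1 gene. The H3 genes left were the equal copies Hist2h3c1 and Hist2h3c2. There H1 gave 0.798 for BMP4 5 h over 96 h and 0.347 for BMP4 11 h over 5 h (the call was lost). H1 also gave 0.652 for FGF4 over BMP4 and 0.632 for BMP4 5 h over 0 h, and H3 gave 0.667 for BMP4 5 h over 96 h. Placed on the 96 h column alone, which left 50 members, the H3 sum gave 0.592 for BMP4 5 h over 96 h. With total counts as library sizes, H2B for BMP4 11 h over 96 h was 0.554 and lost its call. Without the 5 abundant members, all types for BMP4 11 h over 5 h gave 0.625, H2A gave 0.754 for 96 h over 0 h and -1.089 for BMP4 5 h over 96 h, and H4 gave 0.656 for BMP4 11 h over 96 h.

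Counts of members called at 2-fold also moved. For 96 h over 0 h, the higher count was 1 of 24 with placement on the 96 h column, beside 3.32% of all genes. It was 1 of 27 with 2 CPM added, beside 2.15%, and 1 of 8 with a 5 CPM filter, beside 3.25%. The lower count was 2 of 59 by the plain ratio, beside 4.73%. For BMP4 5 h over 96 h, the lower count under the same 3 settings was 1 of 24, 1 of 27 and 1 of 8. All genes stood at 2.81%, 1.94% and 2.74% there. The lower count was 4 of 27 with 0.1 CPM added, beside 4.17%, and 6 of 59 by the plain ratio, beside 5.62%. For BMP4 11 h over 96 h, the higher count was 0 of 27 with 2 CPM added, beside 1.28%, and 8 of 27 with 0.1 CPM, beside 3.56%. It was 1 of 8 with the 5 CPM filter, beside 2.02%, and 26 of 59 by the plain ratio, beside 7.22%. The lower count was 1 of 24 with placement on the 96 h column, beside 0.206%. It was 1 of 27 with 2 CPM added, beside 0.108%, and 1 of 8 with the 5 CPM filter, beside 0.26%. By the plain ratio the higher count was 21 of 59 for BMP4 11 h over 5 h, beside 6.66%. It was 5 of 59 for FGF8 over BMP4, beside 0.776%, and 2 of 59 for BMP4 5 h over 0 h, beside 1.67%. The lower count was 2 of 59 for FGF4 over BMP4, beside 2.12%. For 11 h over 5 h in 4 libraries, DESeq2 called 5 members higher, and leaving out 1 library at a time gave 0 to 14 higher and 0 to 1 lower. Fits with 1 library left out have 1 library at a time point, so no conclusion is drawn from their counts. Those counts also stand here without the share of all genes. The causes of the moves in these counts of members were not tested. At the depth of these libraries 3 counts are 0.0112 to 0.018 CPM, and most members lie under 1 CPM, where 1 misplaced row would change a value.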
